A study of Homo sapiens with 6 samples.

Results

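NEAT1 and MALAT1 are long noncoding RNAs that stay in the nucleus, and NONO, SFPQ and PSPC1 encode the DBHS proteins, RNA-binding proteins that pair with each other and coat NEAT1. These 5 genes were chosen by name from the 58302 genes of the deposited table, and all 5 passed the filter on low counts that left 15572 genes for testing. The cells were MDA-MB-231-DR, a doxorubicin-resistant derivative of MDA-MB-231, a line of triple-negative breast cancer, and were kept in medium with a low concentration of doxorubicin. RNA was sequenced from 3 libraries of control MDA-MB-231-DR cells and 3 libraries of the same cells treated with CYT (cyperotundone), a sesquiterpenoid of nutgrass. The dose and time of CYT, a solvent for the control cells, and whether doxorubicin stayed in the medium are not given for these libraries in the sources used here. The libraries held from 14050849 to 17770102 counts in control and from 13056270 to 14106017 in CYT, and parental cells were not among them.

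Paraspeckles are nuclear bodies that form around the long isoform of NEAT1 as it is transcribed. The DBHS proteins bind along this RNA, and further RNA-binding proteins join them to build the body, which can hold back proteins and edited RNAs in the nucleus. The short isoform of NEAT1 shares the 5′ part of the long one, ends at a poly(A) site and does not build paraspeckles by itself. MALAT1 lies next to NEAT1 on the same chromosome and gathers in nuclear speckles, the neighbouring bodies that store splicing factors. The long NEAT1 isoform and MALAT1 have no regular poly(A) tail. Their 3′ ends are made by RNase P, which cuts before a tRNA-like RNA, and a triple helix of U-rich and A-rich stretches protects the end that is left.

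The sequences of this shared 3′ end are shown because the long NEAT1 isoform and MALAT1 lack a regular poly(A) tail and the libraries were made from mRNA. On hg38, NEAT1 (ENSG00000245532, plus strand) is listed at chr11:65422774-65445540 and MALAT1 (ENSG00000251562, plus strand) at chr11:65497762-65506516. The last 100 bases before the cut were read from the GENCODE release 29 transcripts with 1 exon, of 22743 bases for NEAT1 and 8708 bases for MALAT1, at chr11:65445441-65445540 for NEAT1 and chr11:65506017-65506116 for MALAT1. Capitals mark the U-rich stretches TTTCTTTT and TTTTGCTTT and the A-rich stretch AAAGCAAAA, searched on the RNA strand only, where AAAGCAAAA is the reverse complement of TTTTGCTTT.
NEAT1 RNA 3′ end: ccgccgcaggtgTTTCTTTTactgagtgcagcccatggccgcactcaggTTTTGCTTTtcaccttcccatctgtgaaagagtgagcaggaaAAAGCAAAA
MALAT1 RNA 3′ end: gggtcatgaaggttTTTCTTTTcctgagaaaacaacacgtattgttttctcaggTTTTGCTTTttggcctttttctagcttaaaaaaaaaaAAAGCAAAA
Each of the 3 stretches occurred once in each end, in the same order, and both ends closed with AAAGCAAAA. Among the last 100 bases of the longest transcript of 7627 lincRNA genes, TTTCTTTT was in 1.65%, TTTTGCTTT in 0.302% and AAAGCAAAA in 0.315%, and 1 held all 3, which was that of NEAT1, because the longest MALAT1 transcript ends past the cut. A match is a match of letters and shows no helix. Directly after each end lies the tRNA-like RNA, annotated as RF01684 in both places, at chr11:65445541-65445598 after NEAT1 and chr11:65506117-65506173 after MALAT1.
tRNA-like RNA after NEAT1: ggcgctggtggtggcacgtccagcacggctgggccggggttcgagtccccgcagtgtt
tRNA-like RNA after MALAT1: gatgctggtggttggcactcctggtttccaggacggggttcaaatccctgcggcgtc
The tRNA-like RNA of NEAT1 had 0 counts in all 6 libraries, and that of MALAT1 had 0, 1 and 1 count in the control libraries and 0 counts in each CYT library.

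The comparison of CYT-treated with control cells asks how CYT treatment changed the transcriptome of drug-resistant cells, and it is read here for NEAT1, MALAT1 and the DBHS genes. MALAT1 was 2.61-fold higher after CYT treatment, and SFPQ and PSPC1 were 4.23-fold and 2.10-fold lower. NEAT1 varied more between the libraries of a group than between the groups. NONO lay below control in every CYT library, and its difference passed the test only when the replicate number was a term of the fit, which the test used here leaves out. Of the 5 genes, 1 was called higher and 2 lower by edgeR's quasi-likelihood test (adjusted p under 0.05 by the Benjamini-Hochberg method over 15572 genes), where 15.7% of all tested genes were called higher and 12.9% lower. The groups did not overlap for 4 of the 5 genes, with 1 above and 3 below control, against 23.4% of tested genes above and 22.7% below. CYT replicate 2 stood apart from the other CYT libraries, with correlations across genes of log2 CPM of 0.905 and 0.904 to them against 0.970 between them. Genes are not independent replicates. In these bulk libraries, fewer cells with an RNA and less RNA per cell cannot be told apart.

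NEAT1, the scaffold RNA of paraspeckles, was counted 30, 247 and 154 times in the control libraries (replicates 1 to 3) and 374, 207 and 82 times in the CYT libraries. As CPM, the counts per 1e6 counts of a library after TMM normalization, these were 1.86, 13.2 and 11.1 in control and 26.4, 14.7 and 6.52 in CYT. The highest library of each group was a replicate 2 in control and a replicate 1 in CYT, and the groups overlapped, since CYT replicate 3 lay below control replicates 2 and 3. The spread within control was 7.07-fold from the lowest to the highest library, and it was 4.05-fold within CYT. It was larger than counting error, because the exact Poisson 95% interval of the count was 20.2 to 42.8 in control replicate 1 and 217 to 279.8 in control replicate 2. These intervals cover counting error only. The mean was 8.69 ± 6.01 CPM (SD, n = 3) in control and 15.9 ± 9.98 CPM (SD, n = 3) in CYT, with a log2 fold change of 0.87 (standard error 0.68, edgeR adjusted p = 0.369). The log2 fold change of NEAT1 was 0.37 without control replicate 1 and 0.28 without CYT replicate 1, and at most 1.27 with another library left out (control replicate 2). NEAT1 was thus not called, and a log2 difference of this size was not detectable against the spread of these libraries.

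MALAT1, known for its abundance and its link to metastasis, was counted 134, 228 and 194 times in the control libraries (replicates 1 to 3) and 492, 462 and 278 times in the CYT libraries. Its CPM were 8.31, 12.1 and 13.9 in control and 34.7, 32.9 and 22.1 in CYT. Every CYT library lay above every control library, and the lowest library of the CYT group was again replicate 3. The spread within a group, 1.68-fold in control and 1.57-fold in CYT, was smaller than that of NEAT1. The mean rose from 11.5 ± 2.88 CPM (SD, n = 3) to 29.9 ± 6.82 CPM (SD, n = 3), a log2 fold change of 1.38 (standard error 0.34, edgeR adjusted p = 0.0148). The call was lost without control replicate 1 (log2 fold change 1.18, edgeR adjusted p = 0.0684) and without CYT replicate 1 (1.26, edgeR adjusted p = 0.0546). Limma on log2(FPKM + 1), where the added 1 shrinks differences at low levels, gave 0.73 for MALAT1 (limma adjusted p = 0.0264). Over all 15 alternatives the edgeR, DESeq2 or limma adjusted p ran from 0.000890 to 0.0684.

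Other lincRNA genes differed between the groups as well. The 559 tested lincRNA genes had a median log2 fold change of 1.23, with 241 called higher and 34 lower by edgeR, against a median of 0.0064, 15.7% higher and 12.9% lower over all tested genes. Genes with few counts can pass the filter only through the group where they are high. How far this set the values of the class was not tested. The all-gene median was 0.41 with no filter and 0.013 where the mean reached 5 CPM. The log2 fold changes of MALAT1 and NEAT1 lay above and below the median of their class. Both had at least 30 counts in every library, so their place against a median that the filter may have shaped decides nothing.

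**Figure D1:**
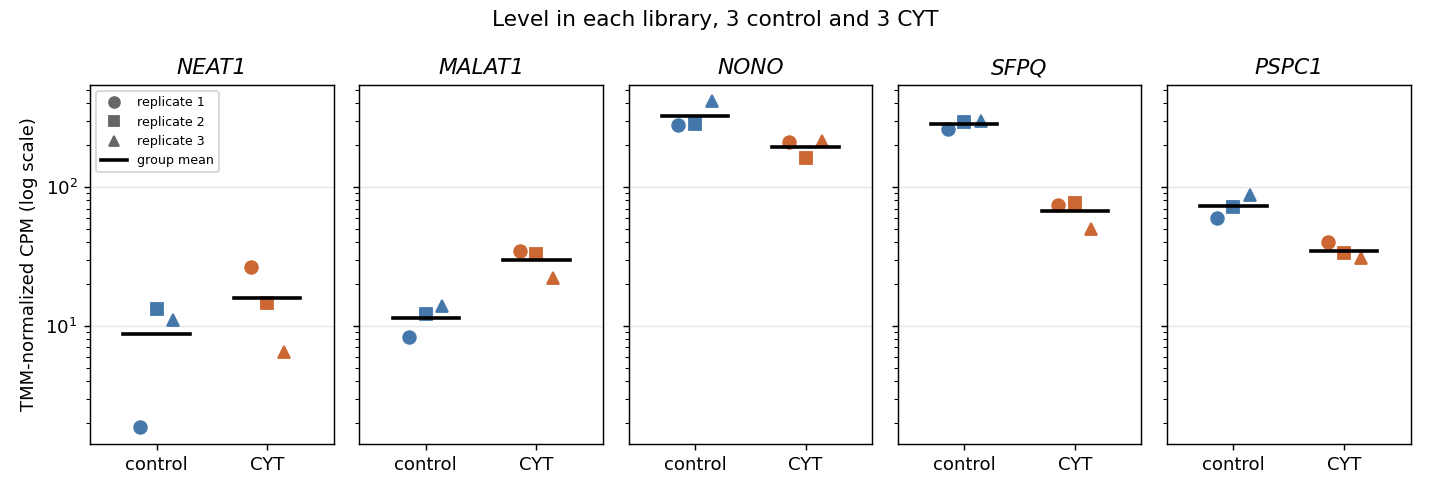
Level of each of the 5 genes in TMM-normalized CPM on a log scale, with 1 point per library (3 control, 3 CYT), the replicate number as the shape and the group mean as a bar. NEAT1 points of control run from 1.86 to 13.2 and overlap CYT, MALAT1 points of CYT (22.1 to 34.7) all lie above control, and the points of NONO, SFPQ and PSPC1 in CYT all lie below control.

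SFPQ (ENSG00000116560, chr1:35176378-35193148), a splicing and transcription factor that NEAT1 draws into paraspeckles, was counted 4191, 5492 and 4146 times in the control libraries (replicates 1 to 3) and 1057, 1080 and 625 times in the CYT libraries. Its CPM were 259.8, 292 and 298 in control and 74.5, 76.9 and 49.7 in CYT. The control libraries lay close together, and even the highest CYT library was far below the lowest of them. The mean fell from 283 ± 20.6 CPM (SD, n = 3) to 67.0 ± 15.1 CPM (SD, n = 3), a log2 fold change of -2.08 (standard error 0.30, edgeR adjusted p = 0.00154). SFPQ was called lower in each of the 15 alternative fits, with log2 fold changes from -2.20 to -1.89.

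PSPC1 (ENSG00000121390, chr13:19674752-19783019), the DBHS protein named for the paraspeckle, was counted 967, 1347 and 1220 times in the control libraries (replicates 1 to 3) and 570, 471 and 385 times in the CYT libraries. Its CPM were 60.0, 71.7 and 87.7 in control and 40.2, 33.5 and 30.6 in CYT. No CYT library reached the lowest control library. The mean fell from 73.1 ± 13.9 CPM (SD, n = 3) to 34.8 ± 4.92 CPM (SD, n = 3), a log2 fold change of -1.07 (standard error 0.29, edgeR adjusted p = 0.0234). Leaving out control replicate 2 ended the edgeR call (log2 fold change -1.10, adjusted p = 0.0521), as did leaving out control replicate 3 (-0.94, adjusted p = 0.103), CYT replicate 1 (-1.19, adjusted p = 0.0519) or CYT replicate 3 (-0.97, adjusted p = 0.0965). Over all 15 alternatives the adjusted p of edgeR, DESeq2 or limma ran from 0.00580 to 0.103.

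NONO (ENSG00000147140, chrX:71283192-71301168), the partner that forms heterodimers with SFPQ and with PSPC1, was counted 4489, 5319 and 5769 times in the control libraries (replicates 1 to 3) and 2985, 2277 and 2700 times in the CYT libraries. Its CPM were 278, 283 and 415 in control and 211, 162 and 215 in CYT. The groups did not overlap, and control replicate 3 stood above the other control libraries. The mean was 325 ± 77.4 CPM (SD, n = 3) in control and 196 ± 29.2 CPM (SD, n = 3) in CYT, with a log2 fold change of -0.73 (standard error 0.29, edgeR adjusted p = 0.0880), which was not called. With the replicate block, that is with the replicate number as a term of the fit, NONO was called lower (log2 fold change -0.72, edgeR adjusted p = 0.0427), and over the 15 alternatives the adjusted p of edgeR, DESeq2 or limma ran from 0.0427 to 0.295. So 2 of the 3 DBHS genes were called lower and 0 higher, beside all-gene shares of 12.9% and 15.7%, with a median of -1.07. The number was 3 with the block and ran from 1 to 2 with a library left out. Of all 15572 tested genes, 3089 were called lower with the block, against 2002 without it.

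Without CYT replicate 2, each of the 5 genes kept its side of the edgeR threshold. The log2 fold changes were then 0.90 for NEAT1, 1.30 for MALAT1, -0.62 for NONO, -2.20 for SFPQ and -1.05 for PSPC1.

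The members can be set against each other only per length, so the CPM was divided by the exonic length of GENCODE release 29 in kb. In control, NONO had 61.5 ± 14.6 CPM per kb (SD, n = 3), SFPQ 38.2 ± 2.78 and PSPC1 15.2 ± 2.89. MALAT1 had 1.30 ± 0.326 CPM per kb and NEAT1 0.382 ± 0.264 in the same libraries. With these lengths, the ranges of the control libraries did not overlap between any neighbours in this order. In CYT the levels per kb were 37.0 ± 5.52 for NONO, 9.03 ± 2.03 for SFPQ, 7.22 ± 1.02 for PSPC1, 3.39 ± 0.772 for MALAT1 and 0.697 ± 0.438 for NEAT1 (SD, n = 3 each). There the libraries of SFPQ (6.69 to 10.4 CPM per kb) and PSPC1 (6.35 to 8.35) overlapped, and the other neighbours in the order stayed apart. Among 15550 tested genes with a length, ranked by the control mean, NONO was above 94.2%, SFPQ above 90.5%, PSPC1 above 78.3%, MALAT1 above 29.5% and NEAT1 above 12.9%. Ranked by the CYT mean, NONO was above 90.8%, SFPQ above 70.0%, PSPC1 above 65.4%, MALAT1 above 47.7% and NEAT1 above 16.3%.

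**Figure D2:**
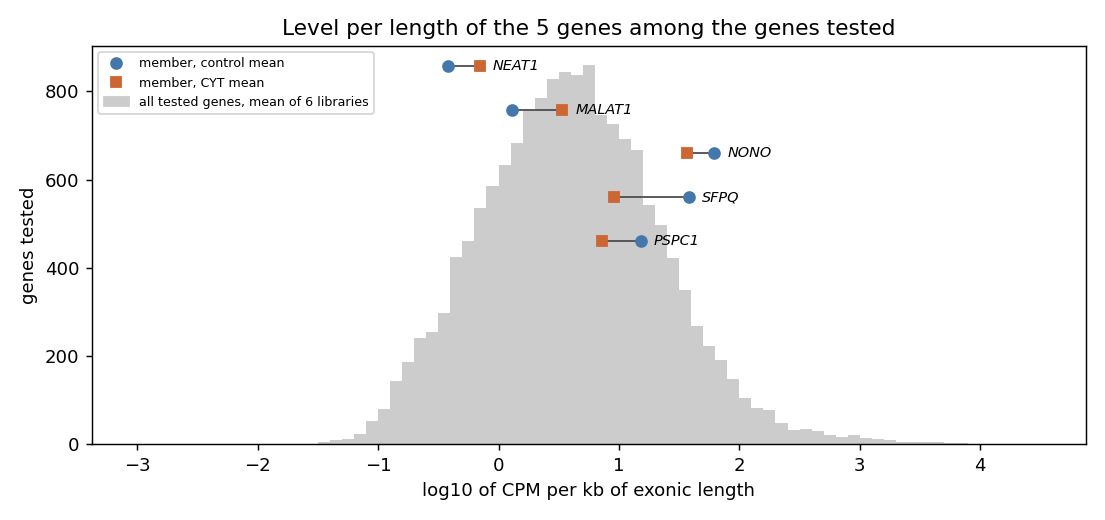
Histogram of 15550 tested genes by the log10 of their mean level over the 6 libraries in CPM per kb of exonic length, with the control mean (circle) and the CYT mean (square) of each of the 5 genes drawn over it at arbitrary heights. NONO lies to the right at 61.5 in control and 37.0 in CYT, and NEAT1 lies to the left at 0.382 and 0.697.

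These levels depend on the length taken for each gene. GENCODE release 29 lists 8 transcripts of NEAT1, from 512 to 22743 bases, and 17 of MALAT1, from 132 to 8708 bases, and their joint exonic lengths are 22767 and 8829 bases. The deposited FPKM (fragments per kb of gene, scaled to library size) imply lengths of 26096 and 16890 bases, which exceed the loci of 22767 and 8755 bases given in the same table. The implied lengths of NONO and SFPQ are nearly equal, 10118 and 10121 bases, against exonic lengths of 5292 and 7426 bases. Their control CPM overlapped (278 to 415 for NONO, 259.8 to 298 for SFPQ), so their order in control holds for the exonic lengths only. A count per gene does not tell the short from the long NEAT1 isoform, and if most reads came from the short one the level per kb would be understated. The 4 genes of the table that overlap NEAT1, the 3 that overlap MALAT1 and the 2 that overlap PSPC1 had at most 1 count in any library, and 0 genes overlap NONO or SFPQ. Pseudogenes named after NONO, PSPC1 and SFPQ had at most 3, 2 and 0 counts in a library. How many reads these genes share with the members cannot be told from such counts, since the treatment of ambiguous reads is not given.

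Ratios within a library need no scaling between libraries. The log2 ratio of the NEAT1 count to the MALAT1 count was -2.16, 0.12 and -0.33 in the control libraries and -0.40, -1.16 and -1.76 in the CYT libraries. The groups overlapped, with control replicate 1 the lowest of all 6 libraries and control replicate 2 the only one with more NEAT1 than MALAT1 counts. The means were -0.79 ± 1.20 (SD, n = 3) in control and -1.11 ± 0.68 (SD, n = 3) in CYT, a difference of -0.31 (exact permutation test, two-sided p = 0.7).

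The log2 ratio of the NEAT1 count to the summed counts of NONO, SFPQ and PSPC1 was -8.33, -5.62 and -6.18 in the control libraries and -3.62, -4.21 and -5.50 in the CYT libraries. All 3 CYT libraries lay above all 3 control libraries, though CYT replicate 3 was only slightly above control replicate 2. The means were -6.71 ± 1.43 (SD, n = 3) in control and -4.44 ± 0.96 (SD, n = 3) in CYT, a difference of 2.26 (exact permutation test, two-sided p = 0.1, and 3 against 3 libraries allow none smaller). Without control replicate 1 the difference was 1.45 (exact permutation test, two-sided p = 0.2). The DBHS side of this ratio summed to 598, 647 and 801 CPM in control and 325, 272 and 295 CPM in CYT.

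Among the DBHS genes themselves, the ratio of SFPQ to NONO counts was 0.934, 1.03 and 0.719 in the control libraries and 0.354, 0.474 and 0.231 in the CYT libraries. This ratio was chosen after its values were seen and was given no test. Every CYT library had fewer SFPQ counts per NONO count than any control library. The ratio of PSPC1 to NONO counts was 0.215, 0.253 and 0.211 in control and 0.191, 0.207 and 0.143 in CYT, where CYT replicate 2 lay close under control replicate 3.

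**Figure D3:**
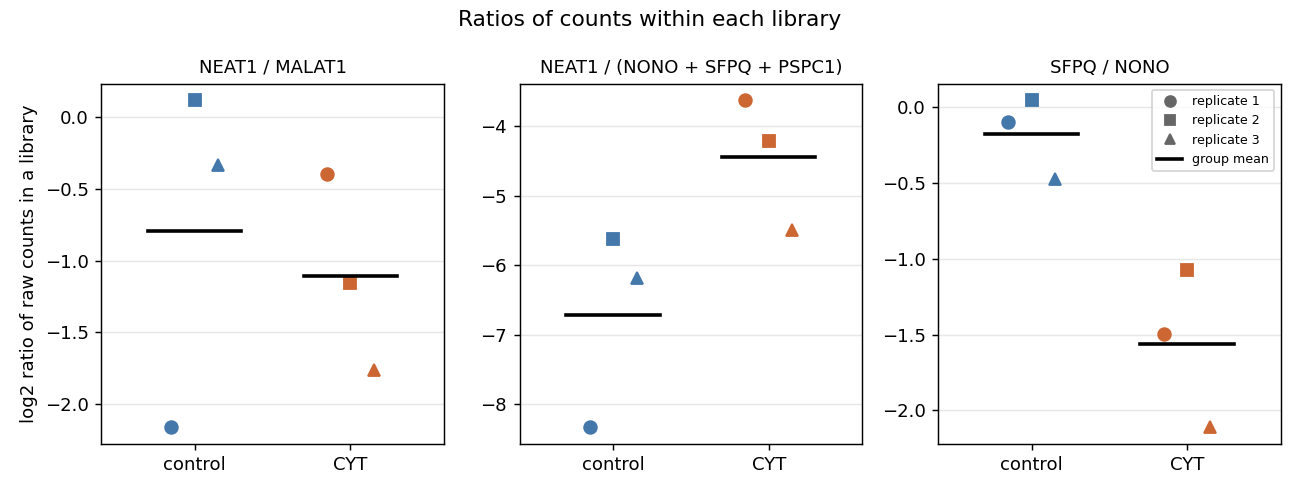
Log2 ratio of raw counts within each library for NEAT1 to MALAT1, NEAT1 to the sum of the DBHS genes, and SFPQ to NONO, with 1 point per library, the replicate number as the shape and the group mean as a bar. The axes differ between panels. The first panel overlaps between control and CYT, the second lies higher in CYT (-5.50 to -3.62) than in control (-8.33 to -5.62), and the third lies lower in CYT.

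Other proteins are needed to build paraspeckles. Of 6 tested genes of this list, 2 were called lower and 0 higher by edgeR, beside 12.9% and 15.7% of all tested genes, and their median log2 fold change was -0.90. RBM14, a coactivator whose prion-like domain helps to assemble the body, had 129, 108 and 134 CPM in the control libraries and 27.6, 15.2 and 26.7 CPM in the CYT libraries. Every control library lay far above every CYT library, with a log2 fold change of -2.42 (standard error 0.33, edgeR adjusted p = 0.00133). DAZAP1, an RNA-binding protein and splicing regulator, was called lower as well (log2 fold change -1.66, standard error 0.37, edgeR adjusted p = 0.00925). Not called were SMARCA4 of the SWI/SNF complex (-1.12), HNRNPH3 (-0.69) and HNRNPK, which favours the long NEAT1 isoform (-0.32). SMARCA4 was called lower with the replicate block (log2 fold change -1.11, edgeR adjusted p = 0.00600), by DESeq2 (-1.08, DESeq2 adjusted p = 0.0484) and without control replicate 2 (-1.43, edgeR adjusted p = 0.0379). HNRNPH3 was called lower without CYT replicate 2 (-0.91, edgeR adjusted p = 0.0365).

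Of 23 other paraspeckle proteins, all tested, 1 was called higher and 3 lower by edgeR, where 15.7% of all tested genes were higher and 12.9% lower. Their median log2 fold change was -0.29. HNRNPR, an RNA-binding protein of the hnRNP family, fell, with a log2 fold change of -1.94 (standard error 0.45, edgeR adjusted p = 0.0109), which was -2.56 without CYT replicate 2. UBAP2L, a protein also found in stress granules, and RBMX, a splicing regulator, were also lower by edgeR (log2 fold changes -1.27 and -0.95), and UBAP2L lost its call in 3 and RBMX in 5 of the 6 fits without a library (edgeR adjusted p up to 0.0975 and 0.121). ZC3H6, a zinc finger protein, was called higher from low levels, 0.285 ± 0.140 CPM in control and 1.87 ± 0.789 CPM in CYT (SD, n = 3 each). Its counts were 2, 7 and 5 in control and 15, 37 and 24 in CYT. It thus passed the filter on low counts only through the group where it was high, and its call carries no weight for the list. The call was lost without control replicate 1 (ZC3H6 log2 fold change 2.30, edgeR adjusted p = 0.0535) and in limma on log2(FPKM + 1) (0.099, limma adjusted p = 0.159). The number called lower ran from 1 to 6 over the fits that left out a library, with 6 without CYT replicate 2, and was 5 with the replicate block. All tested genes then gave 2750 lower of 16146 without CYT replicate 2 and 3089 lower of 15572 with the block. The cold-inducible protein gene CIRBP had 17.1, 67.8 and 70.5 CPM in control and 121, 143 and 97.6 CPM in CYT. Its groups did not overlap, but it was called only by DESeq2 and with the replicate block (log2 fold change 1.43, edgeR adjusted p = 0.0264) and not by the test used here (1.22, standard error 0.48, edgeR adjusted p = 0.0886).

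The list for the 3′ ends of NEAT1 and MALAT1 holds the cleavage factor genes CPSF6 and NUDT21, which favour the poly(A) site of the short NEAT1 isoform, and HNRNPK, which counters them. These 3 genes also stand in the lists above. It also holds protein subunits of RNase P (POP1 is not in the list), ELAC2, which trims the 3′ end of tRNAs and of the tRNA-like RNA, and METTL16, which binds the triple helix of MALAT1. Of these 14 genes, 2 were called lower and 0 higher by edgeR, a share called lower that is near the 12.9% of all tested genes, and their median log2 fold change was -0.48. METTL16 had 35.3, 45.3 and 34.0 CPM in the control libraries and 17.6, 11.5 and 17.6 CPM in the CYT libraries. The groups were well apart, and METTL16 fell, with a log2 fold change of -1.30 (standard error 0.32, edgeR adjusted p = 0.0140). The RNase P subunit gene RPP21 had 35.7, 10.8 and 28.5 CPM in control and 6.35, 1.64 and 4.69 CPM in CYT. Replicate 2 was the lowest library in each group, and RPP21 fell, with a log2 fold change of -2.56 (standard error 0.58, edgeR adjusted p = 0.0102), against -1.76 in limma on log2(FPKM + 1). CPSF6 (-0.77), NUDT21 (-0.44), HNRNPK (-0.32) and ELAC2 (-0.51) were not called. With the replicate block 4 of the 14 genes were called lower, CPSF6 among them (edgeR adjusted p = 0.0264), and without CYT replicate 2 the number was 6, with NUDT21 among them (-0.84, edgeR adjusted p = 0.0377). Over all tested genes the number lower rose as well, to 3089 of 15572 with the block and 2750 of 16146 without CYT replicate 2.

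RNAs without a poly(A) tail were read sparsely in these libraries, for which the authors separated mRNA from total RNA by a method they do not name. Of the 10 rows of the table for the 9 listed RNAs, 4 passed the filter, with 1 called higher and 1 lower by edgeR (15.7% and 12.9% of all tested genes) and a median log2 fold change of -1.56, which was -0.34 without control replicate 1. RN7SK, which holds the elongation factor P-TEFb inactive, had 0.852 to 4.22 CPM in the control libraries and 10.9 to 14.5 CPM in the CYT libraries, without overlap, a log2 fold change of 2.25 (standard error 0.53, edgeR adjusted p = 0.0118). RPPH1, the RNA of RNase P, had 1.61, 2.02 and 5.32 CPM in control and 0.564, 0 and 0.159 CPM in CYT. Its counts were 26, 38 and 74 in control and 8, 0 and 2 in CYT, so RPPH1 passed the filter only through the control group. It was called lower (log2 fold change -3.56, standard error 0.90, edgeR adjusted p = 0.0165), and the call was lost without control replicate 3 (RPPH1 log2 fold change -2.89, edgeR adjusted p = 0.0766) and without CYT replicate 3 (-3.33, edgeR adjusted p = 0.0660), while without CYT replicate 1 it was -5.15. The RNAs of the signal recognition particle, RN7SL1 and RN7SL2, had log2 fold changes of -1.62 and -1.49 and were not called, but both were called lower without control replicate 2 (RN7SL1 -2.12, edgeR adjusted p = 0.0397, RN7SL2 -1.97, edgeR adjusted p = 0.0356). Control replicate 1 was the highest library of both, and without it the log2 fold changes were -0.22 for RN7SL1 and -0.45 for RN7SL2. Since RPPH1 passed the filter only through the group where it was high, its call carries no weight for the list. These untailed RNAs thus do not settle a shared direction, and the part of RNA selection in the level of MALAT1 was not tested.

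Nuclear speckles are the bodies in which MALAT1 gathers. Of 13 tested genes of speckle proteins, 5 were called lower and 0 higher by edgeR (all tested genes: 12.9% and 15.7%), and the median log2 fold change was -0.86. The 5 were the splicing factors SRSF1 and SRSF2 (-2.62 and -1.85), the RNA helicase DDX39B (-1.29), ACIN1 (-1.24) and THRAP3 (-1.16). ACIN1, a part of the exon junction complex, and THRAP3, a splicing cofactor, each lost the call without control replicate 1, control replicate 3 or CYT replicate 3, with edgeR adjusted p from 0.0515 to 0.0750. The number called ran from 3 to 7 over the fits that left out a library and was 8 with the replicate block. For all tested genes, the number lower ran from 1208 of 16412 (without control replicate 3) to 2750 of 16146 (without CYT replicate 2). It was 3089 of 15572 with the block. The scaffold protein genes of the speckle, SON (-0.062) and SRRM2 (-0.66), were not called, and without CYT replicate 2, its lowest library, SRRM2 was at -0.16. The sign of SON changed in 5 of the alternatives, upper-quartile normalization among them (SON log2 fold change 0.089).

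Among other long noncoding RNAs, 16 of 19 rows of the table passed the filter, with 4 called higher and 0 lower by edgeR, against 15.7% and 12.9% over all tested genes. The groups did not overlap for 8 of the 16, near the sum of the all-gene shares, 23.4% above and 22.7% below. Their median log2 fold change was 0.25. KCNQ1OT1, the antisense RNA of an imprinted cluster, had 1.18, 1.70 and 2.01 CPM in control and 21.2, 23.0 and 10.5 CPM in CYT. It rose by a log2 fold change of 3.48 (standard error 0.44, edgeR adjusted p = 0.000951) and by 0.24 in limma on log2(FPKM + 1), though its reads cannot be told from those of its sense partner, since the use of strand in counting is not given. SNHG1, a host gene of small nucleolar RNAs, was called with 1.63 (edgeR adjusted p = 0.0152) and lost the call without control replicate 1 (edgeR adjusted p = 0.0547). TUG1, another nuclear RNA, was called with 1.08 (edgeR adjusted p = 0.0470) and lost the call in 5 of the 6 fits without a library, with edgeR adjusted p from 0.0658 to 0.162 in TUG1. H19, an imprinted RNA, was called from low levels with 2.39 (edgeR adjusted p = 0.0293) and lost the call in 5 of those fits, with edgeR adjusted p from 0.0618 to 0.112 in H19, and in limma on log2(FPKM + 1) (0.10, limma adjusted p = 0.148). With 6, 1 and 5 counts in control and 28, 14 and 14 in CYT, H19 passed the filter only through the group where it was high. Its call therefore carries no weight for the list. NORAD, a cytoplasmic RNA that binds PUMILIO proteins, had log2 fold changes of 1.02 without and 0.95 with the replicate block, and it was not called without the block (edgeR adjusted p = 0.0547) and was called with it (edgeR adjusted p = 0.0177) and in 5 other alternatives. FTX was called with the block as well (0.86, edgeR adjusted p = 0.0490). The number called higher ran from 1 to 4 with a library left out and was 6 with the block, and 2 were called lower without CYT replicate 2. Among all tested genes, 3120 of 15572 were called higher with the block, and 2750 of 16146 lower without CYT replicate 2.

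**Figure D4:**
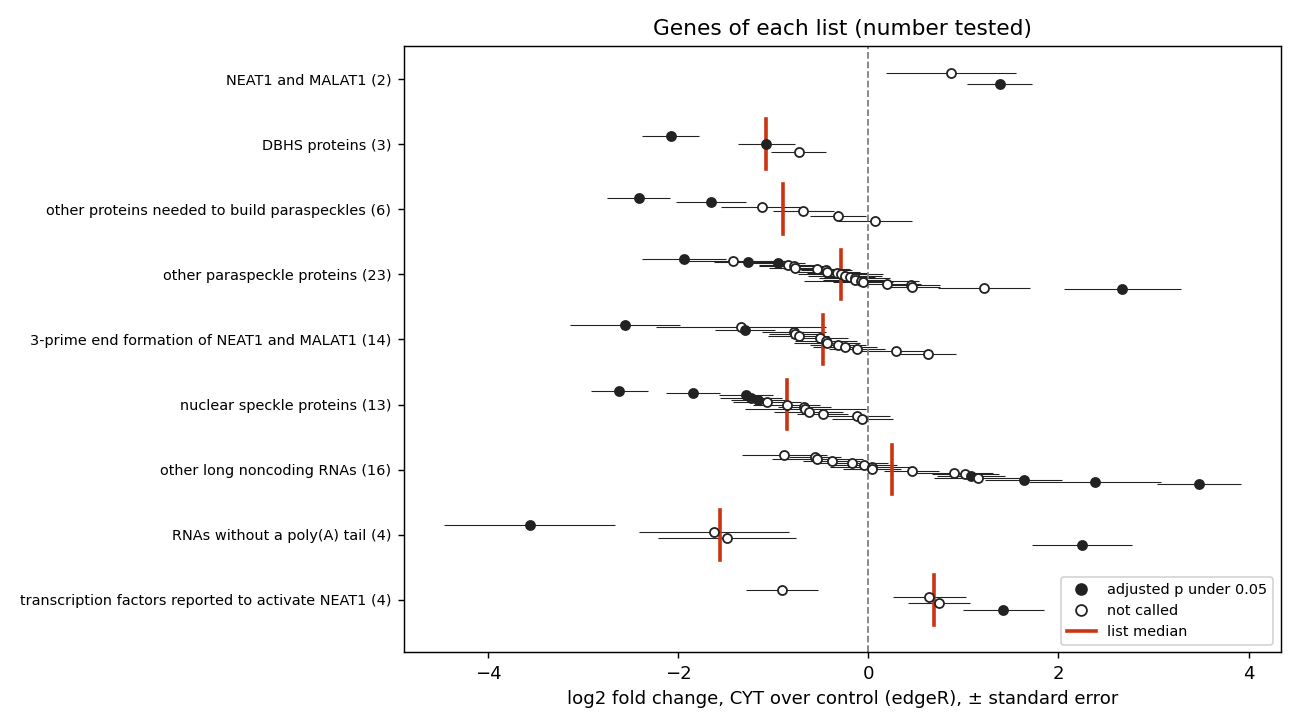
Log2 fold change of CYT over control with its standard error for each tested gene of 8 lists and for NEAT1 and MALAT1, where filled points had an edgeR adjusted p under 0.05, open points did not, and the red bar is the list's median. The speckle protein genes lie below 0 with a median of -0.86, the DBHS genes lie from -2.08 to -0.73, and NEAT1 (0.87) and MALAT1 (1.38) lie above 0.

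Of 4 transcription factors reported to activate NEAT1, 1 was called higher and 0 lower by edgeR, where all tested genes gave 15.7% and 12.9%, and the list had a median of 0.69 on the log2 scale. EPAS1, a hypoxia-inducible factor, had 21.6, 14.2 and 24.7 CPM in control and 38.2, 88.8 and 35.0 CPM in CYT, a log2 fold change of 1.42 (standard error 0.42, edgeR adjusted p = 0.0326). Its highest library was CYT replicate 2, and the size of this fold change rests in part on it. CYT replicates 1 and 3, at 38.2 and 35.0 CPM, lay closer to the control mean of 20.2 CPM. The edgeR call was lost without control replicate 1 (EPAS1 adjusted p = 0.0886), control replicate 2 (0.0976) or control replicate 3 (0.0732), and in both limma fits (limma adjusted p = 0.0562 and 0.0698). ATF2, a factor of mitochondrial stress signalling to NEAT1 (0.64), and HSF1, the heat shock factor (-0.91), were not called. With the replicate block, HSF1 was called lower (edgeR adjusted p = 0.0129).

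Other genes within 100 kb of NEAT1 or MALAT1 were examined next. Of 25 such genes, 7 overlapped NEAT1 or MALAT1 and 12 were tested, of which 1 was called higher and 0 lower by edgeR (15.7% and 12.9% of all tested genes). The median log2 fold change of the 12 was 0.13. SSSCA1-AS1, 62.0 kb beyond MALAT1 and read without a stated strand, had 1.43, 0.213 and 1.37 CPM in control and 7.76, 3.70 and 7.63 CPM in CYT (log2 fold change 2.68, standard error 0.65, edgeR adjusted p = 0.0137), against 1.32 in limma on log2(FPKM + 1). Its counts were 23, 4 and 19 in control and 110, 52 and 96 in CYT, so the control libraries alone would not have passed the filter. SSSCA1-AS1 was thus tested only through the group where it was high, and its call carries no weight for the neighbourhood. FRMD8 (-0.018), on the outer side of NEAT1, and the pseudogene AP000769.1 between NEAT1 and MALAT1 (-0.14) were not called, and the sign of FRMD8 and of AP000769.1 changed under upper-quartile normalization. CYT replicate 2 was the lowest CYT library in 11 of the 12 genes and the lowest of all 6 libraries in 8 of them. Without it, FAM89B and TIGD3 were called higher beside SSSCA1-AS1, and the median was 0.48. For MALAT1 and NEAT1 CYT replicate 2 was not the lowest library of its group.

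**Figure D5:**
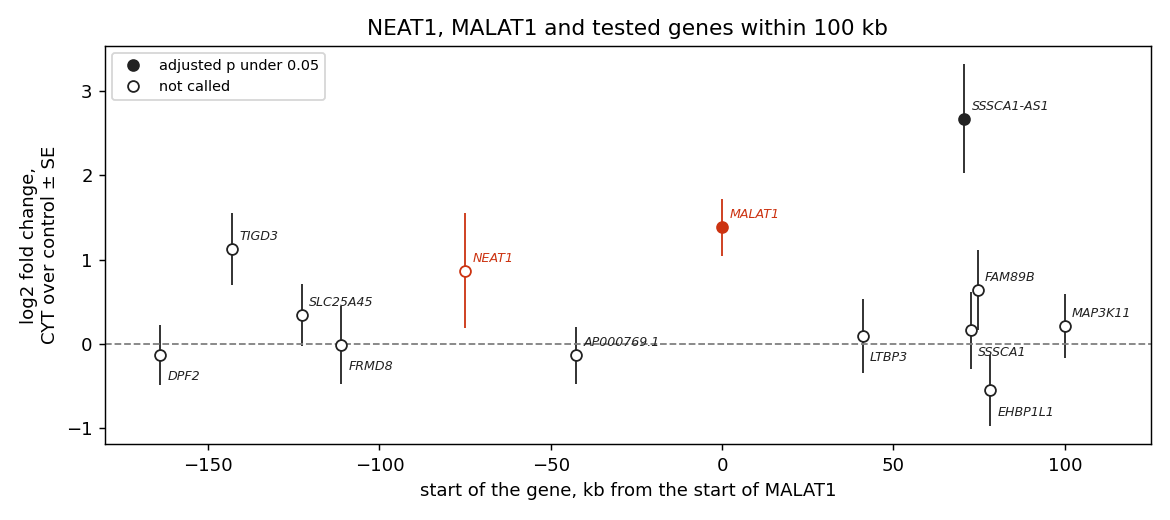
Log2 fold change of CYT over control with its standard error for NEAT1, MALAT1 (red) and tested genes within 100 kb of either, by the distance of their start from the start of MALAT1 in kb, where filled points had an edgeR adjusted p under 0.05. MALAT1 at 1.38 and SSSCA1-AS1 at 2.68 are the filled points, and the open points other than NEAT1 and TIGD3 lie between -0.56 and 0.64. SSSCA1-AS1 passed the filter on low counts only through CYT, where it was high.

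The genes with the pattern most like that of a member were taken by the smallest root mean square difference of centred log2 CPM over the 6 libraries, among 11416 genes. For NEAT1 these were TREX1, a DNA exonuclease (0.39), HRH1, a histamine receptor (0.54), CXADR, a cell adhesion protein (0.54), FOXA1, a transcription factor (0.57), and CIRBP (0.58). Likeness to NEAT1 fixes that such genes vary within the groups. TREX1 had 1.49, 6.23 and 11.1 CPM in control and 17.1, 7.76 and 3.26 CPM in CYT. For MALAT1 they were TMEM242 (0.15), HIGD1A, a mitochondrial hypoxia-induced protein (0.18), GABRE, a GABA receptor subunit (0.19), EGLN3, a prolyl hydroxylase of the hypoxia response (0.20), and ORC6 of the origin recognition complex (0.20). Likeness to MALAT1 fixes their direction. TMEM242 had 4.59, 7.56 and 6.61 CPM in control and 20.1, 19.2 and 14.6 CPM in CYT.

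The labelled cell line was checked with marker genes. The 5 markers of MDA-MB-231, namely VIM, CD44, AXL, CAV1 and EGFR, summed to 3646, 3798 and 4040.3 CPM in control and to 1656, 1804 and 1734 CPM in CYT. VIM was the most abundant, and VIM, EGFR and AXL were called lower by edgeR (log2 fold changes -1.30, -2.65 and -0.82). AXL lost the call without any 1 of the 6 libraries (edgeR adjusted p from 0.0509 to 0.131), and CAV1 gained it with the replicate block (-1.09, edgeR adjusted p = 0.00803) and without CYT replicate 2 (-1.37, edgeR adjusted p = 0.0240). The 6 markers of MCF7, another line of the study, summed to 422, 206 and 249 CPM in control and 41.7, 15.4 and 33.2 CPM in CYT, of which KRT19 made up most. ESR1, PGR, TFF1 and CDH1 had too few counts to be tested, CDH1 had 0 counts in each control library and 6, 16 and 2 in the CYT libraries and was called higher when all genes were tested (edgeR adjusted p = 0.0147), GATA3 had 4.62 ± 0.283 CPM in control and 2.79 ± 0.428 CPM in CYT (SD, n = 3 each), and KRT19 was called lower (-3.45, edgeR adjusted p = 0.00187). The 6 blood and endothelial markers summed to at most 5.43 CPM in a library, CD3E had 0 counts throughout, and CD14, the most abundant over the 6 libraries together but below PECAM1 in each control library, was called higher by edgeR (2.43), though not without control replicate 1 (CD14 edgeR adjusted p = 0.0634), with 3.20 without control replicate 3 and 0.77 in limma on log2(FPKM + 1). CD14 had 10, 4 and 19 counts in control and 51, 59 and 49 in CYT. It thus passed the filter on low counts only through the group where it was high, and its call carries no weight for this check. The part of these marker changes in the levels of NEAT1, MALAT1 and the DBHS genes was not tested.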

How the data were processed

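RNA of 3 control and 3 CYT-treated MDA-MB-231-DR libraries was analysed, grouped by the sample labels. The authors extracted total RNA, separated mRNA, sequenced it, removed low-quality, adapter and rRNA reads and aligned the rest with Hisat2 to hg38. The submitters' processing notes name FastQC 0.12.1. The authors deposited raw counts and FPKM per gene, with Stringtie named for the FPKM. For quantifying genes they name a program they call edge, with no version or settings. Whether reads were counted by strand, and what was done with multiply matching reads, are not given in the sources used here.

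The counts were scaled by TMM, filtered with filterByExpr (minimum count 10) and tested with the quasi-likelihood test of edgeR 4.0.16 in R 4.3.3, without a replicate term, over 15572 genes, with Benjamini-Hochberg adjustment and a threshold of 0.05. Standard errors are the log2 fold change over the root of F. CPM are TMM-normalized. Count ratios were compared by two-sided exact permutation tests. Exonic lengths, strands, transcripts and sequences came from GENCODE release 29 (GRCh38, the assembly of hg38), which holds 58039 of the 58302 gene identifiers. The fit was also run on simulated counts, whose outcome is not given here. Those counts held fewer changed genes than were called in these data and no replicate effect. Alternatives were DESeq2 1.42.0, upper-quartile normalization, scaling from protein-coding genes, testing every gene or only those whose mean reached 5 CPM, a replicate block, limma 3.58.1 on logged FPKM with 1 or 0.1 added, an added criterion of an absolute log2 fold change over 1, FPKM for the ratios, and leaving out each library.

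Some genes of the lists and of the neighbourhood are not reported here by name. The members and lists were chosen with earlier results of these data known. Named were the 5 members, tested genes of the lists (DBHS proteins, other proteins needed to build paraspeckles, other paraspeckle proteins, 3′ end formation, nuclear speckle proteins, other long noncoding RNAs, RNAs without a poly(A) tail, activators of NEAT1, and markers of MDA-MB-231, MCF7 and blood and endothelium), genes within 100 kb of NEAT1 or MALAT1, and the 5 genes most like NEAT1 and most like MALAT1 by pattern with a mean of at least 5 CPM. The authors describe their data in general as from 3 independent experiments, but the labels do not say whether these libraries came from separate cultures. If they did not, p-values measure only the spread between these libraries, which may be technical. Replicates of a group differed by more than sampling noise, so none was counted as a copy. The labels number the replicates. Deviations from the group mean correlated between libraries of equal number (r = 0.188 for 1, 0.458 for 2 and 0.124 for 3, across genes). Control replicate 1 with CYT replicate 3 (0.303) and control replicate 3 with CYT replicate 1 (0.201) correlated more than pairs 1 and 3. The replicate numbers thus do not establish pairing, and fits with the replicate block are given only as an alternative.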

Additional observations from a re-analysis of the deposited data

How the results depend on the processing

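NEAT1 was called in none of the 15 alternatives, with log2 fold changes from 0.26 to 1.27, and SFPQ was called lower in all 15. Over the alternatives MALAT1 ran from 0.73, in limma on log2(FPKM + 1), to 1.58. Leaving out each library gave log2 fold changes from 0.28 to 1.27 for NEAT1, 1.18 to 1.58 for MALAT1, -0.85 to -0.54 for NONO, -2.20 to -1.89 for SFPQ and -1.22 to -0.94 for PSPC1, and ended the call of MALAT1 in 2 and of PSPC1 in 4 fits with fewer libraries. The replicate block brought NONO past the threshold (log2 fold change -0.72, edgeR adjusted p = 0.0427), changed no other call of the 5 genes, and called 14 further genes among 103 members, list genes and neighbours, NONO included. It gave 0 losses. The 4451 genes called by edgeR were 2859 if only genes whose mean reached 5 CPM entered the test, and from 2891 (without control replicate 3) to 5752 (without CYT replicate 2) with a library left out. With the block they were 6209, less than 1.5 times as many. Of these 6209, 3120 were higher and 3089 lower, against 2449 and 2002 in the main fit, so the number lower rose more. Without CYT replicate 2, 3002 of 16146 genes were higher and 2750 lower. The all-gene median of 0.0064 became 0.16 under upper-quartile normalization, and scaling from protein-coding genes made it 0.083. The list medians kept their signs under both. The difference of the log2 NEAT1 to MALAT1 ratio, -0.31, turned to 0.14 without control replicate 2 and to 0.015 without CYT replicate 3, and reached -0.996 as the lowest value with a library left out (exact permutation p from 0.2 to 1). Paired by replicate it stayed at -0.31 (exact sign-flip p = 1). The NEAT1 to DBHS difference, 2.26, ran from 1.45 to 2.81 and had a sign-flip p of 0.25 under the block, the smallest that 3 pairs allow. The causes were not tested.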

Other observations

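Some short genes annotated inside NEAT1 and MALAT1 had nearly the same count of 1 everywhere, while MIR612 inside NEAT1 had 1 count in CYT replicate 3 and 0 elsewhere. RF01956 and RF01957 inside NEAT1 and RF01871 inside MALAT1 each had exactly 1 count in all 6 libraries, and RF01955 inside NEAT1 had 1 count in each library but CYT replicate 2, where it had 0. In the whole table, 220 genes had exactly 1 count in all 6 libraries, among them 109 miRNA, 55 snoRNA and 32 misc_RNA genes, while 0 genes had exactly 2 and 0 had exactly 3 counts in all 6. These genes were chosen after their values were seen, and where these single counts come from was not tested.

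The most abundant lincRNA genes per kb over the 6 libraries were SFTA1P with 53.8 CPM per kb, SNHG8 with 43.7 and NORAD with 38.3, also named after their values were seen. By the same measure MALAT1 was number 177 and NEAT1 number 442 of 559 tested lincRNA genes. By CPM not divided by length, MALAT1 was number 25 and NEAT1 number 52.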
